A study of Mus musculus with 8 samples.

Results

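The level of phosphorylation on the alpha subunit of the translation factor eIF2 is set by 4 kinases and by a phosphatase, and the transcripts of that machinery were followed here in the embryonic mouse heart. The 8 genes were taken by symbol for their known roles, with earlier results of these data known: the kinase genes Eif2ak1, Eif2ak2, Eif2ak3 and Eif2ak4, the kinase inhibitor Impact, the adaptor Nck1, and the phosphatase subunit genes Ppp1r15a and Ppp1r15b. Each matched 1 of the 52778 listed features, and all 8 were among the 15545 genes expressed enough to be tested, which needed at least 1 TPM in at least 4 libraries.

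RNA was taken from ventricular heart at embryonic day 11.5 in 4 control libraries and in 4 libraries from embryos homozygous for an Atf4 allele that lacks 7 bases of exon 3. The deletion shifts the reading frame and leaves the polyadenylation signal in place, and the labels give the allele as one that makes no protein, which was not measured here. The mutation is global, present in every cell of the embryo, and no embryo received a drug. Strain is given as C57BL/6 for both groups, but the genotype field reads wild type for the mutants too, so genotype was taken from the titles. The labels do not say whether controls were littermates, or whether a library holds 1 embryo or a pool, so p-values measure the spread between these libraries only. All 8 libraries carry the batch label 1.

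Cells answer several unrelated stresses by phosphorylating eIF2 alpha, which slows most translation but favours a few transcripts, ATF4 among them. Each kinase senses a different signal: HRI, the product of Eif2ak1, responds to haem shortage and mitochondrial stress, PKR (Eif2ak2) to double-stranded RNA, PERK (Eif2ak3) to unfolded protein in the endoplasmic reticulum, and GCN2 (Eif2ak4) to uncharged tRNA and stalled ribosomes. Protein phosphatase 1 reverses the mark when GADD34 (Ppp1r15a), which stress induces, or CReP (Ppp1r15b), which is constitutive, brings it to eIF2. ATF4 and its partner CHOP are known activators of Ppp1r15a, which closes a feedback loop around the factor targeted in these embryos.

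One protocol text attached to the samples speaks of cultured cortical neurons, so the tissue was checked first. Cardiomyocyte genes dominated every library: the 10 markers together held 30460 to 33580 TPM in controls and 30910 to 33510 TPM in mutants. Myl2, the ventricular myosin light chain, averaged 11500 ± 542 TPM (SD, n = 4) in controls and 11100 ± 370 TPM in mutants. The 10 neuronal markers together held 9.995 to 14.7 TPM in controls and 11.3 to 12.7 TPM in mutants. Neurod6, a defining gene of cortical excitatory neurons, was listed at 0 in every library. One text describes poly(A) selection and another rRNA depletion, and which was used is not settled by the labels. Atf4 itself, the targeted gene, was at 105, 121, 115 and 105 TPM in controls and 166, 164, 185 and 148 TPM in mutants. It rose with a log2 fold change of 0.57 (limma adjusted p = 0.0430), a call that 12 of 17 alternative analyses lost, and a higher transcript level says nothing of the protein.

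All 4 kinase arms were transcribed in the ventricle, and their listed levels differed. Eif2ak1 was the most abundant, at 32.9 ± 1.81 TPM over all libraries (SD, n = 8), above 71.1% of tested genes. Eif2ak2 followed at 21.7 ± 1.32 TPM, then Eif2ak4 at 13.9 ± 0.923 TPM and Eif2ak3 at 9.18 ± 0.832 TPM (SD, n = 8 each). The listed order HRI, PKR, GCN2, PERK was the same in each of the 8 libraries. The place of PKR is less certain, since a pseudogene described below overlaps Eif2ak2. TPM is scaled for transcript length, so these levels can be set side by side, though they say nothing of protein or kinase activity.

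**Figure D1:**
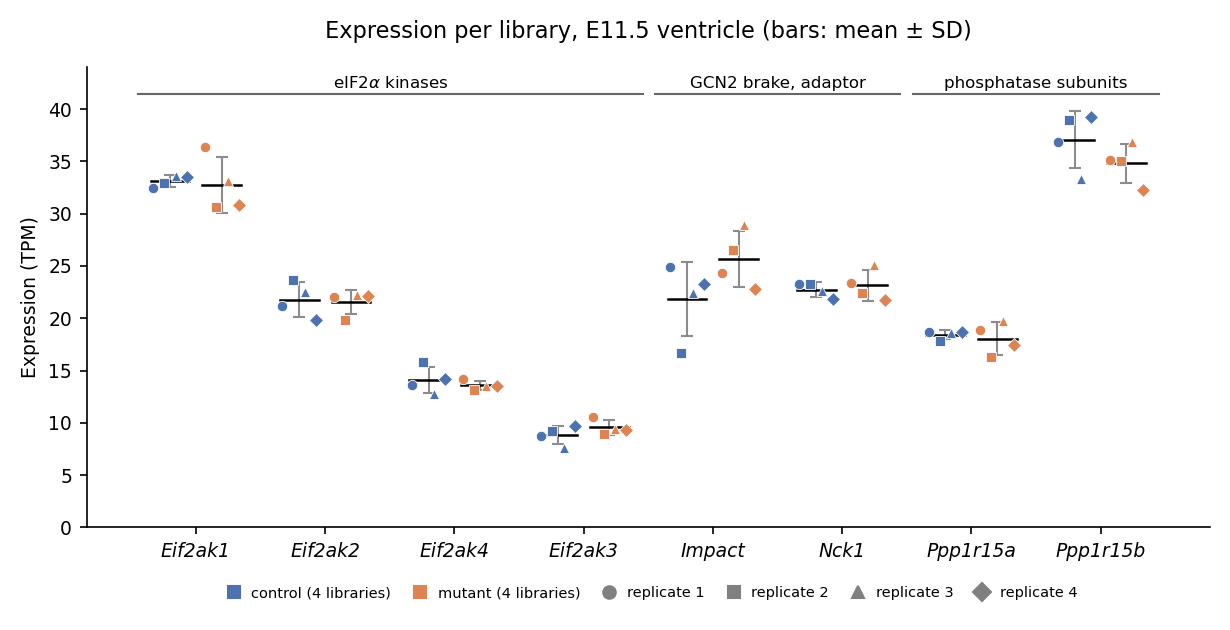
TPM (vertical axis) of the 8 genes in each of 4 control and 4 mutant libraries of E11.5 ventricle; black lines are means, grey bars SD, and marker shapes the replicate numbers. Eif2ak1 and Ppp1r15b are the highest, Eif2ak3 is the lowest, and control and mutant values overlap in all 8 genes.

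Eif2ak1, on chromosome 5 from base 143817792 to base 143902717 (plus strand, GRCm38), held 32.5, 33.0, 33.6 and 33.5 TPM in controls. The mutants held 36.4, 30.6, 33.1 and 30.8 TPM, so they lay on both sides of a tight control group. HRI is best known from red cell precursors, where it matches globin synthesis to haem. The 10 erythroid markers together varied more, from 3994 to 6772 TPM in controls and from 3735 to 5250 TPM in mutants, and their part in the level of Eif2ak1 was not tested. The log2 fold change of Eif2ak1 was -0.021 with a 95% interval from -0.15 to 0.11 (limma, adjusted p = 0.980).

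Eif2ak2, on chromosome 17 from base 78850504 to base 78882572 (minus strand), held 21.1, 23.6, 22.5 and 19.86 TPM in controls and 22.0, 19.85, 22.2 and 22.2 TPM in mutants. The ranges nearly coincided, and the log2 fold change was -0.012 (95% interval from -0.15 to 0.13). Gm6548, a transcribed pseudogene, lies on the same strand inside the last 2041 bases of Eif2ak2 and was listed at 15.01 to 17.7 TPM. How reads shared by both features were counted is not stated, so the level of Eif2ak2 is uncertain to that extent. PKR is a classical interferon-induced gene, which makes the other interferon-stimulated genes a useful comparison. Of the 18 listed, 17 matched a feature and only 6 were expressed enough to be tested. Isg15 averaged 0.897 TPM in controls and Mx1 0.0280 TPM, far below Eif2ak2, so the gene was expressed where most of its interferon-induced companions were barely detected. These examples were chosen after their values were seen.

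Eif2ak4, on chromosome 2 from base 118388583 to base 118475234 (plus strand), held 13.6, 15.8, 12.8 and 14.2 TPM in controls. The mutants sat inside that range at 14.2, 13.1, 13.5 and 13.5 TPM. GCN2 is the arm that reports amino acid shortage, the state in which ATF4 would normally raise amino acid synthesis. The log2 fold change of its transcript was -0.048 (95% interval from -0.20 to 0.10, adjusted p = 0.953).

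Eif2ak3, on chromosome 6 from base 70844484 to base 70905241 (plus strand), held 8.71, 9.23, 7.63 and 9.65 TPM in controls and 10.5, 8.93, 9.41 and 9.32 TPM in mutants. Mutant replicate 1 was the highest and control replicate 3 the lowest, with the other 6 libraries between them. The log2 fold change of 0.11 had a 95% interval from -0.075 to 0.29 and did not pass the test (adjusted p = 0.902). It was 0.048 without control replicate 3 and 0.064 without mutant replicate 1.

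As a share of the summed kinase transcripts the mix was alike in both genotypes. HRI made up 42.6% ± 1.55 in controls and 42.2% ± 1.26 in mutants, and PKR 28.0% ± 1.65 and 27.9% ± 1.198 (SD, n = 4 each). GCN2 made up 18.1% ± 1.10 and 17.6% ± 0.477, and PERK 11.3% ± 1.04 and 12.3% ± 0.272. The 4 kinases together held 77.8 ± 2.59 TPM in controls and 77.4 ± 4.48 TPM in mutants. These sums and shares are descriptions, were not tested, and carry the uncertainty in the level of Eif2ak2.

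Impact and Nck1 encode partners of this machinery that are neither kinases nor PPP1R15 subunits. IMPACT competes with GCN2 for its co-activator GCN1 and so holds the kinase back, and it is most abundant in neurons. Impact, on chromosome 18 from base 12954690 to base 12992950 (plus strand), was the most variable of the 8 genes, with a coefficient of variation of 15.02% over the 8 libraries against 4.73% to 9.06% in the others. The controls held 24.9, 16.7, 22.4 and 23.3 TPM and the mutants 24.3, 26.5, 29.0 and 22.8 TPM. Control replicate 2 lay below all other libraries, and the remaining controls overlapped the mutants.

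Impact had the largest fitted difference of the 8 genes, with a log2 fold change of 0.23 and a 95% interval from -0.033 to 0.50. It did not pass the test, at an unadjusted p = 0.0791 and an adjusted p = 0.841 (limma). Without control replicate 2 the log2 fold change was 0.12. That library also had the lowest sum of neuronal markers of all 8, 9.995 TPM, of which the single gene Tubb3, also lowest there, held 7.06 TPM. The remaining libraries did not follow this order. Tubb3 was highest in control replicate 4, at 11.84 TPM, where Impact held 23.3 TPM. Mutant replicate 3, the highest for Impact at 29.0 TPM, had the lowest Tubb3 among the mutants, 8.015 TPM. In control replicate 2 the sum of endocardial and endothelial markers was the highest, 728 TPM, where the others held 637 to 712 TPM. Its epicardial markers summed to 242 TPM, the lowest among controls, while the mutants spanned 236 to 262 TPM. The part of these cell types in its Impact level was not tested. In bulk tissue, fewer cells of a type and less RNA per cell cannot be told apart. Set against the kinase it restrains, Impact held 1.57 ± 0.350 transcripts per Eif2ak4 transcript in controls and 1.89 ± 0.223 in mutants (ratio of TPM, SD, n = 4 each). Control replicate 2 held 1.06.

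Nck1, on chromosome 9 from base 100494302 to base 100546134 (minus strand), encodes an adaptor of SH2 and SH3 domains that also binds eIF2 and can bring phosphatase to it. The gene held 23.3, 23.3, 22.6 and 21.8 TPM in controls and 23.3, 22.5, 25.1 and 21.7 TPM in mutants. It was the steadiest of the 8 genes, and every control value lay within the range of the mutants. The log2 fold change was 0.023 (95% interval from -0.096 to 0.14, adjusted p = 0.974).

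**Figure D2:**
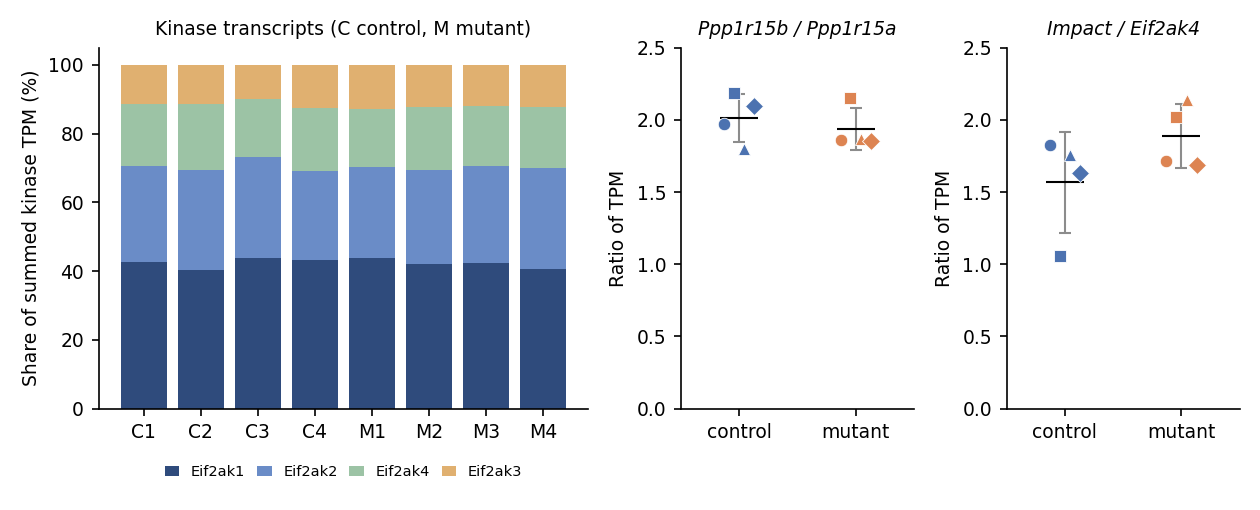
Left, the share of each kinase in the summed kinase TPM (%, stacked bars, 1 per library). Middle and right, the ratio of Ppp1r15b to Ppp1r15a TPM and of Impact to Eif2ak4 TPM by genotype, with points for libraries, black lines for means and grey bars for SD. Eif2ak1 takes 40.4% to 43.9% in every library, and the Impact ratio is lowest in control replicate 2 at 1.06.

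Both phosphatase subunits were expressed, and the constitutive one was higher in each of the 8 libraries. Ppp1r15b, on chromosome 1 from base 133131166 to base 133139800 (plus strand), held 36.8, 39.0, 33.3 and 39.2 TPM in controls and 35.1, 35.0, 36.9 and 32.3 TPM in mutants. Its mean of 36.0 TPM was the highest of the 8 genes and stood above 73.3% of tested genes. The genotypes overlapped, since control replicate 3 lay below 3 of the mutants. The log2 fold change was -0.088 (95% interval from -0.22 to 0.049, adjusted p = 0.892). It was -0.14 without control replicate 3 and -0.053 without mutant replicate 4.

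Ppp1r15a, on chromosome 7 from base 45522917 to base 45526268 (minus strand), is the member whose known activator is the targeted factor. It held 18.7, 17.8, 18.6 and 18.7 TPM in controls and 18.9, 16.3, 19.7 and 17.4 TPM in mutants. All 4 controls lay inside the range of the mutants. The log2 fold change was -0.031 with a 95% interval from -0.17 to 0.11 (limma, unadjusted p = 0.626, adjusted p = 0.970). On the scale of log2(TPM + 1), that interval runs from 0.888 to 1.08 times the control level. Ppp1r15b held 2.01 ± 0.169 times the TPM of Ppp1r15a in controls and 1.94 ± 0.147 times in mutants (SD, n = 4 each).

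Promoter sequence was searched because 2 of the genes have well-known inducers, ATF4 with CHOP for Ppp1r15a and interferon for Eif2ak2. RefSeq windows of GRCm38.p6 from 250 bases before to 50 bases after the start were held for 6 of the 8 genes, 8 windows in all, and not for Ppp1r15b and Impact. The core of the C/EBP-ATF response element, TGATGNAA on either strand, was in none of these windows and in 3.97% of 32851 promoter windows. The palindromic cAMP response element, TGACGTCA, which ATF and CREB family factors can bind, was in 1.79% of windows and among the 6 genes in that of Ppp1r15a, at bases -12 to -5 relative to the start. The core of the interferon-stimulated response element was searched as GAAA, any 2 bases and GAAA on either strand. It was in 3.44% of windows, and among the 6 genes in those of Eif2ak2, at bases 19 to 28 after the start, and Ppp1r15a, at bases -220 to -211. The endoplasmic reticulum stress element, CCAAT and CCACG spaced by 9 bases, was in 0.119% of windows and in none of these. Each match is shown on the strand of its gene, with the matched letters in capitals, so that the letters behind the counts can be seen:
Ppp1r15a cAMP response element, chr7:45526263-45526290: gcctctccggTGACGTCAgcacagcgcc
Ppp1r15a interferon-type element, chr7:45526469-45526498: aaaataaaagGAAAGGGAAAtggcacggta
Eif2ak2 interferon-type element, chr17:78882535-78882564: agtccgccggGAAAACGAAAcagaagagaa
A match in letters is not a bound site, and the absence of one says only that those letters are not in the window.

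Both phosphatase subunit genes are also known to be controlled at translation through upstream open reading frames, short frames ahead of the coding sequence that let some transcripts be read when eIF2 is phosphorylated. In the principal GENCODE M21 transcripts, Ppp1r15a (3 exons) and Ppp1r15b (2 exons) each hold 3 upstream ATG codons, and in each case all 3 frames end before the coding start. Impact holds 8 upstream ATG codons, Eif2ak3 holds 3 and Eif2ak2 holds 1, while Eif2ak1, Eif2ak4 and Nck1 hold 0. Of 21581 genes, 50.9% hold at least 1 and 30.9% hold 2 or more. The start contexts of the phosphatase subunits are shown with the ATG in capitals, since total RNA cannot report regulation at these codons:
Ppp1r15a, ATG at base 35 of the transcript, frame of 45 codons: tggacgATGt
Ppp1r15a, ATG at base 79, frame of 34 codons: gattacATGc
Ppp1r15a, ATG at base 180, frame of 26 codons: ggcgacATGa
Ppp1r15b, ATG at base 103, frame of 2 codons: cggcgaATGa
Ppp1r15b, ATG at base 326, frame of 8 codons: ttctctATGg
Ppp1r15b, ATG at base 375, frame of 51 codons: gccgggATGg
RNA level is therefore one layer of control of these genes, and their translation was not measured here.

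Over all 8 genes the order of levels was Ppp1r15b, Eif2ak1, Impact, Nck1, Eif2ak2, Ppp1r15a, Eif2ak4 and Eif2ak3. The first pair kept its order in 6 of 8 libraries, Impact exceeded Nck1 in 6 of 8, and Nck1 exceeded Eif2ak2 in 6 of 8, so these neighbours overlapped. The other 4 steps held in all 8 libraries without overlap of the ranges, with Eif2ak2 taken at its listed level. The largest was the last, where Eif2ak4 was 1.51 times Eif2ak3.

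None of the 8 genes passed an adjusted p = 0.05 in the limma fit, a count of 0, where 0.0386% of all 15545 tested genes did (0.00643% higher and 0.0322% lower in mutants). None had an unadjusted p below 0.05 either, where 6.10% of tested genes did. In none of them did the 4 control and 4 mutant values separate, which happened in 3.68% of tested genes. Fitted changes were higher in mutants for 3 genes and lower for 5, with a median log2 fold change of -0.016 against -0.0033 over all tested genes. Against backgrounds this low, a count of 0 among 8 genes is near the background and is no result about them. What the data bound is the size of a change. The 95% intervals of 7 of the 8 genes lay within 0.3 of zero on the log2 scale, and that of Impact within 0.5. A p above the threshold does not show that the genotypes are equal.

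**Figure D3:**
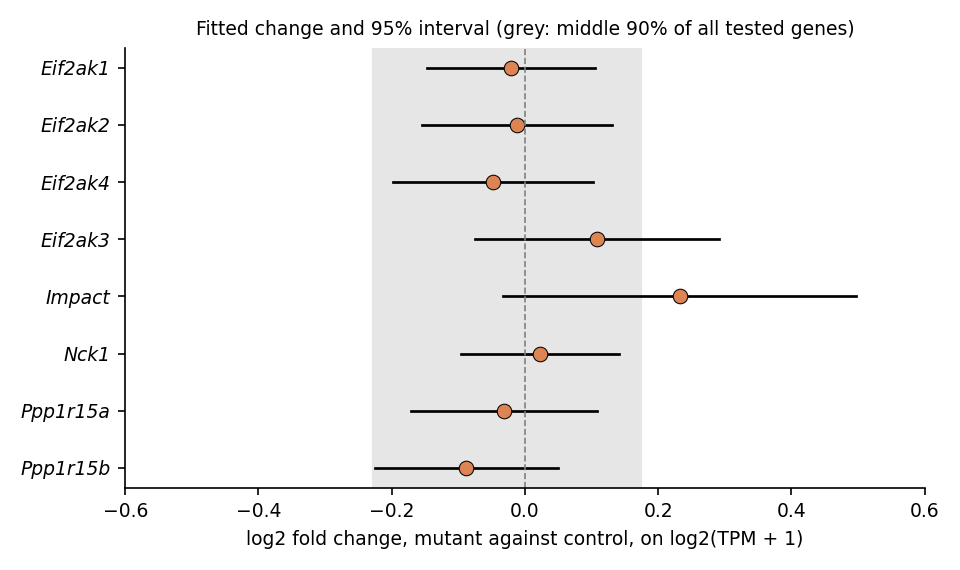
Fitted log2 fold change (points) with 95% interval (lines) of the 8 genes, mutant against control, on log2(TPM + 1), from limma. Every interval crosses zero; the widest, for Impact, runs from -0.033 to 0.50, and the grey band holds the middle 90% of all tested genes.

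Mutant replicate 2 gave the lowest of the 8 values for Eif2ak1, Eif2ak2 and Ppp1r15a. Its cardiomyocyte marker sum, 30910 TPM, was the lowest among the mutants, and so was its total over all listed features, 923473 TPM against 930446 to 949762 TPM. Without it the log2 fold changes of these genes were 0.0092, 0.026 and 0.015, on the other side of zero and still within their intervals. The 8 macrophage markers together held 12.6 to 18.6 TPM in controls and 8.43 to 11.4 TPM in mutants, so the sums did not overlap, and none of the markers was at 0 in every library. The 5 that could be tested all had lower fitted values in mutants, and none passed (lowest adjusted p = 0.573). Their part in the values of the kinases and phosphatase subunits was not tested.

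Around the 8 genes, the substrate and its exchange factor were examined next. Of 10 genes for eIF2, eIF2B and eIF5, the GTPase-activating partner of eIF2, 0 passed the adjusted threshold. The unadjusted p was below 0.05 for 1 higher and 2 lower in mutants, where 2.65% of tested genes were higher and 3.45% lower at that level. Eif2s2, for the beta subunit of eIF2, was at 106 ± 2.49 TPM in controls and 96.7 ± 6.48 TPM in mutants (SD, n = 4 each), with a log2 fold change of -0.13 (adjusted p = 0.800). Eif2b3, for a subunit of the exchange factor eIF2B and the lowest of the list, was at 17.6 ± 1.46 and 14.7 ± 2.197 TPM, with a log2 fold change of -0.25 (adjusted p = 0.809). Eif5, the highest, was at 141 TPM in both genotypes. The alpha subunit gene Eif2s1, the target of all 4 kinases, was the gene with the higher value and was at 64.3 ± 0.849 TPM in controls and 68.2 ± 2.37 TPM in mutants (log2 fold change of 0.084, adjusted p = 0.809).

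The catalytic partners of the phosphatase subunits far exceeded them. Ppp1ca averaged 429 ± 3.35 TPM in controls, Ppp1cb 195 ± 2.61 TPM and Ppp1cc 161 ± 4.68 TPM (SD, n = 4 each), against 55.5 ± 2.62 TPM for Ppp1r15a and Ppp1r15b together. In the mutants Ppp1cb was at 205 ± 2.17 TPM and Ppp1cc at 171 ± 4.15 TPM, with log2 fold changes of 0.070 and 0.084 that did not pass (adjusted p = 0.800 and 0.809). Actin, whose monomer joins the phosphatase complex, was the most abundant of the list of 5 through Actb, at 1182 ± 44.02 TPM in controls and 1138 ± 22.8 TPM in mutants. None of the 5 genes passed, a count of 0, and 2 had an unadjusted p below 0.05, both higher in mutants, as 2.65% of tested genes were.

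Of 12 regulators of the kinases, 0 passed, where 0.0386% of all tested genes did. Only 1 had an unadjusted p below 0.05, where 6.10% of tested genes did. That gene was Dnajc3, for P58IPK, a co-chaperone that inhibits PERK and PKR, at 30.8 ± 0.750 TPM in controls and 33.2 ± 1.36 TPM in mutants (log2 fold change of 0.11, adjusted p = 0.809). Hspa5, for the chaperone BiP that keeps PERK inactive, was at 703 ± 45.3 and 756 ± 35.4 TPM, also with a log2 fold change of 0.11 (adjusted p = 0.841). Oma1, for the mitochondrial protease that signals to HRI, was the lowest of the list at 14.2 ± 3.08 and 16.1 ± 1.21 TPM. Its control replicate 3 stood at 9.67 TPM, below the 15.2 to 16.6 TPM of the remaining controls. Rplp1, a ribosomal stalk protein of the kind that activates GCN2, was the highest at 1906 ± 48.0 and 1889 ± 128 TPM. Rplp1 and Actb both have processed pseudogenes, so their levels are uncertain.

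Of 4 genes for the parallel endoplasmic reticulum sensors and the downstream factor Xbp1, 0 passed, where 0.0386% of all tested genes did. Xbp1 alone had an unadjusted p below 0.05, higher in mutants, as 2.65% of tested genes were. Xbp1, the transcription factor that IRE1 activates, was at 66.4 ± 2.09 TPM in controls and 72.5 ± 4.54 TPM in mutants (log2 fold change of 0.12, adjusted p = 0.809). Atf6b was at 41.9 ± 3.13 and 44.4 ± 4.41 TPM. Ern1, which encodes IRE1 and is the PERK-like sensor of this list, was at 6.05 TPM in both genotypes.

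Among the interferon-stimulated genes 0 of 6 tested passed, and none had an unadjusted p below 0.05. Over all tested genes these shares were 0.0386% and 6.10%. Bst2, which encodes tetherin, was the highest at 16.9 ± 2.39 TPM in controls and 18.7 ± 1.22 TPM in mutants. Ifit2 was the lowest tested, at 5.95 ± 0.698 and 5.58 ± 0.927 TPM. The immediate early genes, which like Ppp1r15a respond fast to handling and stress, gave 0 of 11 tested past the threshold. At an unadjusted p below 0.05 there was 1, higher in mutants, as 2.65% of tested genes were. Fos had an unadjusted p = 0.0442, at 4.203 ± 1.05 TPM in controls and 5.36 ± 0.175 TPM in mutants (adjusted p = 0.809). Jun, the highest, was at 45.01 ± 4.94 and 45.7 ± 3.94 TPM, and Egr1 at 10.6 ± 2.35 and 12.5 ± 1.80 TPM.

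The outputs of the pathway were described last. Of 16 listed output genes 13 were tested, and 2 passed over all genes, Atf4 upward and Phgdh downward, where 0.0386% of tested genes passed. Atf4 is the targeted gene itself, and all counts given for this list include it. Phgdh, the first enzyme of serine synthesis, fell. Controls averaged 61.2 ± 1.90 TPM and mutants 44.1 ± 1.93 TPM (SD, n = 4 each), which gave a log2 difference of -0.46 (limma, adjusted p = 0.00883, a call that 6 of 17 alternative analyses lost). Trib3, a pseudokinase that ATF4 and CHOP induce, was the lowest tested at 1.43 ± 0.425 and 1.01 ± 0.389 TPM. The list had 10 genes with lower and 3 with higher fitted values, and a median log2 fold change of -0.16. At an unadjusted p below 0.05 there were 5 lower and 2 higher, where 3.45% of tested genes were lower and 2.65% higher. Ddit3, which encodes CHOP, had a log2 fold change of -0.18 with an interval from -0.57 to 0.22 (adjusted p = 0.929). The list includes genes already known to differ in these libraries, so its count is not independent evidence, and the difference between it and the 8 upstream genes was not tested.

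**Figure D4:**
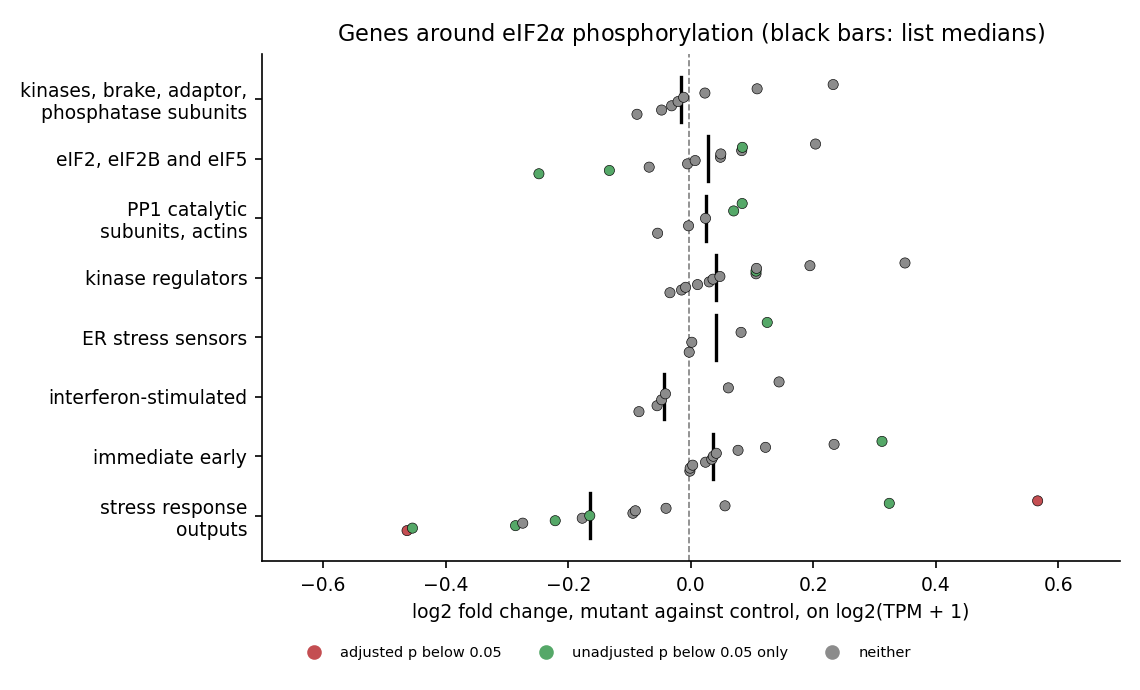
Log2 fold change, mutant against control on log2(TPM + 1), of each tested gene in 8 lists around eIF2 phosphorylation; black bars are list medians and the dashed line is the median of all tested genes. Red points (adjusted p below 0.05) appear in the output list, where the median is -0.16, and in no other list.

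For 7 of the 8 genes the most similar gene is given, taken as the one with the highest Pearson correlation of log2(TPM + 1) over the 8 libraries, out of 11625 others with a mean of at least 5 TPM. These were Arpc2 for Eif2ak3 (r = 0.990), Dip2b for Ppp1r15b (0.977), Rere for Nck1 (0.974), Higd2a for Eif2ak2 (0.963), Marchf3 for Eif2ak1 (0.958), Ube2e3 for Impact (0.951) and Gdpd5 for Eif2ak4 (0.942). None of these matches was itself among the 8 genes. The highest of so many correlations over 8 libraries is high whatever the genes, and the points share a library and its scaling, so the values are a description only.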

How the data were processed

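Values are TPM as deposited by the authors, 1 column per library, matched to samples through the library names in the labels. The submitters' processing notes name FastQC, Trim Galore 0.6.7, HISAT2 2.2.1, StringTie 2.2.1, featureCounts and DESeq2 with GRCm38 and mm10, without saying which made the TPM. Annotation and strand setting are not given in the sources used here. Coordinates of the 8 genes equal those of RefSeq GRCm38.p6. TPM keeps no read depth, so the spread between libraries is the measure of error.

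Values were analysed as log2(TPM + 1), which understates changes of low genes. Genes reaching 1 TPM in 4 or more of the 8 libraries were compared with limma 3.58.1 (R 4.3.3), with variances that follow mean expression, two-sided, with Benjamini-Hochberg adjustment over all 15545 genes at 0.05. The fit was first tested on simulated data. Motif searches, ratios and plots used Python 3.11.15 (pandas 2.3.3; numpy 2.4.6; plotting by matplotlib 3.10.9).

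The 8 genes and all lists were chosen with earlier results of these data known. Lists come from general knowledge. In each pathway list the genes named are those past the threshold, or else the 2 with the smallest p, and the highest and lowest tested; other genes were picked with their values in view. The symbol Rigi found no match. The alternatives changed the pseudocount to 0.1, dropped the filter or raised it to 5 TPM, and tried 3 other scalings, no variance trend, library weights, the replicate number as a block and each library left out. A few genes that this rule names are not reported here.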

Additional observations from a re-analysis of the deposited data

Results flagged for a closer look

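Groups of 4 libraries were examined 92 times, over the 8 genes, the genes described around them and the 6 marker sums, for an extreme library, one standing so far from the next value that this distance was most of the spread of its group. This happened 8 times, against 4.6 expected at the 5% rate of the test, and groups that share a library are not independent. Neurod6, at 0 in every library, was counted among the 92 although it could not be flagged. Some genes, Map3k20 among them, were described after their values were seen. For both reasons the count cannot be set strictly against that rate.

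In 5 of the 8 cases the library was mutant replicate 2. It was low for Eif2ak2, at 19.85 TPM where the other mutants held 22.0 to 22.2 TPM. It was low for Eif5, at 136 TPM against 142 TPM in each of the others, and for Fos, at 5.10 TPM against 5.43 to 5.48 TPM. Mx1, a gene barely detected anywhere, was listed at 0.0 TPM there and at 0.0252 to 0.0300 TPM in the other mutants. Control replicate 2 was also listed at 0.0 TPM for Mx1, so that value is not particular to mutant replicate 2. The summed cardiomyocyte markers of mutant replicate 2 held 30910 TPM and those of the other mutants 33100 to 33510 TPM. In the other 3 cases it was control replicate 2. Its endocardial and endothelial markers summed to 728 TPM where the other controls held 663 to 674 TPM, and its epicardial markers summed to 242 TPM against 268 to 270 TPM. Map3k20, which encodes a ribosome-associated kinase upstream of GCN2, had 47.6 TPM there, below the 66.2 to 69.3 TPM of replicates 1, 3 and 4.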

How the results depend on the processing

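All 17 alternatives were planned. The count of the 8 genes past the threshold was 0 in each of them, and their lowest adjusted p in any was 0.768. Of their 136 log2 fold changes, 8 changed sign, all with a library left out, and 2 reached an unadjusted p below 0.05: Impact without control replicate 1 (p of 0.0375) and Ppp1r15b without control replicate 3 (p of 0.0316). Leaving out each library in turn moved Eif2ak1 between -0.071 and 0.0092, Eif2ak2 between -0.053 and 0.027, Eif2ak4 between -0.090 and 0.0045, Ppp1r15a between -0.073 and 0.015, and Nck1 between -0.015 and 0.052. It moved Impact between 0.12 and 0.30, Eif2ak3 between 0.048 and 0.15 and Ppp1r15b between -0.14 and -0.053, which kept their sign. Among 29 other genes run in the same way, this step moved Eif5 between -0.024 and 0.010, Ern1 between -0.063 and 0.041, Jun between -0.042 and 0.076, Rplp1 between -0.049 and 0.031, Gm6548 between -0.024 and 0.048 and Map3k20 between -0.016 and 0.16, and quantile normalization put Ern1 at 0.015. The count over all genes, 6 with TPM as deposited, was 0 with no filter, 0 with no variance trend and 0 with the replicate block, and between 0 and 3 with a library left out. The causes were not tested. Phgdh lost its call in 6 of the 17 alternatives and Atf4 in 12, without change of sign.

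Replicate numbers are shared between groups, but deviations of same-numbered libraries correlated between -0.082 and 0.035 and those of other pairs between -0.054 and 0.057, and 1 of 4 controls correlated best with its own number. The numbers were therefore not taken as pairs. The depth behind each TPM is unknown, which limits what can be said of genes near 1 TPM.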

Other observations

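Nck2, the paralogue of Nck1, was singled out after its values were seen, and it fell into separate levels within the controls. Control replicates 2 and 4 held 13.7 and 13.5 TPM, while replicates 1 and 3 held 25.5 and 26.4 TPM. The mutants held 22.3 to 26.1 TPM. Its log2 fold change of 0.35 had a 95% interval from -0.12 to 0.82 (limma, adjusted p = 0.861). Nck1 in the same 4 controls stayed between 21.8 and 23.3 TPM. The log2 fold change of Nck2 was 0.20 without control replicate 4 and 0.50 without control replicate 3, and it kept its sign with each of the 8 libraries left out.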
